A study of Mus musculus with 2 samples.

Results

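Type I interferon-stimulated genes are the antiviral genes that cells raise when interferon alpha or beta reaches them. They were chosen by symbol from a list of 34, and 31 of the symbols were found among the 19070 genes of both libraries. Mx1 and Mx2 were not analysed here. The Ensembl identifier of Ddx58, the RNA sensor RIG-I, is listed under the symbol Rigi, so the rule did not take it, and its values are given below beside those of the other RNA sensors. The genes were described in the whole libraries and then in tumour cells, myeloid cells, lymphocytes and stromal cells, each set by the UMIs of its markers.

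The study sequenced single cells from tumours that Lewis lung carcinoma (LLC) cells, an established mouse line, form when grafted under the skin. It asked how tumour cells that persist under blockade of PD-1, a receptor that restrains T cells, differ from control tumour cells. One group was 1 library from mice given the anti-PD-1 antibody, described as cells that survived 7 days after treatment. The other was 1 library from control mice, which the sample labels describe as given an IgG2a isotype control antibody and the series text as untreated. Both groups carry the same grafted cell line in the skin, not in the lung, with host immune and stromal cells in the same tissue. The number, strain, sex and age of the mice are not given in the sources used here. With 1 library per group there are no replicates and no test was made. Intervals are exact, cover 95%, and reflect counting error only. The antibody, the individual mice, the collection and the preparation of each library cannot be told apart.

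Interferon alpha and beta bind a receptor made of Ifnar1 and Ifnar2, whose kinases activate the complex ISGF3. This complex holds Stat2 and Irf9 and binds interferon-stimulated response elements in gene promoters. Interferon gamma uses another receptor and a different promoter element, although many genes answer to both. The products of the stimulated genes block viral replication, sense foreign nucleic acid, and amplify or end the signal, and in tumours they are also raised by nucleic acid from dying or damaged cells.

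The letters of the response element can be read in the promoters of several of these genes. Promoter sequences were taken from RefSeq, build GRCm38.p6, and 24 of the 31 genes had an entry. The core of the element was searched as a pair of GAAA motifs with any 2 bases between them, on either strand, in the 250 bases before the start. It was found in 12 of the 24, which is 50% of them, against 936 of the 27025 genes in the table, or 3.46%. The 12 are Isg15, Ifit1, Ifit1bl1, Ifit3, Ifit3b, Oas1a, Oas3, Rsad2, Stat2, Bst2, Trim30a and Slfn5. The other 12 with an entry held no match, namely Ifit2, Oasl1, Oasl2, Irf7, Irf9, Ifi44, Ifih1, Xaf1, Cmpk2, Ifi35, Dtx3l and Slfn4. No entry was found for Oas2, Usp18, Rtp4, Zbp1, Dhx58, Parp9 and Parp14. A match describes letters in the window and is not evidence of a factor bound there.

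The following are the last 200 bases before the start of 6 genes chosen among those with a match, shown so that the response element can be compared between them. All are written 5′ to 3′ on the strand of the gene, with the matches to the GAAA pair or its reverse complement in capitals. Isg15 (chr4:156200819-156201018 on the minus strand) held 3 overlapping matches that begin 78, 72 and 66 bases before its start. Ifit1 (chr19:34640689-34640888 on the plus strand) held matches at 104 and 85 bases, Ifit3 (chr19:34583329-34583528 on the plus strand) at 156 and 122 bases, and its close copy Ifit3b (chr19:34607757-34607956 on the plus strand) at 188 and 154 bases. The start used for Ifit3b was not matched in a Gencode transcript. Ifit1bl1 (chr19:34601969-34602168 on the minus strand) had a single match at 104 bases and Rsad2 (chr12:26456453-26456652 on the minus strand) a single match at 120 bases.
Isg15: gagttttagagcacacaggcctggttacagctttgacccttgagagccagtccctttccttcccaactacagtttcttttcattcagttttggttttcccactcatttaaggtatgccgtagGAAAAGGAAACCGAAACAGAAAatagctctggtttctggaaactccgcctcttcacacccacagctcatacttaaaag
Ifit1: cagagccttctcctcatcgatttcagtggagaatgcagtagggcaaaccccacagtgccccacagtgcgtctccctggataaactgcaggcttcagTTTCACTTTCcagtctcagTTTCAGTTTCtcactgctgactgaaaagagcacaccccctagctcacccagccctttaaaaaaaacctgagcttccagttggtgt
Ifit1bl1: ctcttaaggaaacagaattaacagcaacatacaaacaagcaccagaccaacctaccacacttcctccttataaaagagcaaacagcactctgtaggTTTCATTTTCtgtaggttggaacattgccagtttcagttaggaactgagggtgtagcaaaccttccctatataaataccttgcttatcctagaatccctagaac
Ifit3: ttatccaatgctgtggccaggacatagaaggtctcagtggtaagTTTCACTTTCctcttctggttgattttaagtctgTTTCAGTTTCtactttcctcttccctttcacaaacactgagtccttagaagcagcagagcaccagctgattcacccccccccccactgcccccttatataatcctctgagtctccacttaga
Ifit3b: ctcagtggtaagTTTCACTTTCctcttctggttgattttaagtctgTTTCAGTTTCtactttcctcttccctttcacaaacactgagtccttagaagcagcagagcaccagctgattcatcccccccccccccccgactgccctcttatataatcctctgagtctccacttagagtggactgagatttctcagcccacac
Rsad2: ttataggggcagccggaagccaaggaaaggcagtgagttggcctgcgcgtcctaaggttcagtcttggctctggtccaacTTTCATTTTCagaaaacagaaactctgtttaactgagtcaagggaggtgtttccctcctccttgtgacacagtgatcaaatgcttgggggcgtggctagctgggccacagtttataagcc

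The 31 genes lie on 13 chromosomes, and 19 of them fall into 7 runs, in which each member is under 1 Mb from the next. The loosest pair, Dhx58 and Ifi35, spans 764 kb with other genes between them. Positions are from Gencode M21 on mm10. The 5 IFIT genes sit together at chr19:34550694-34650009, in the order Ifit2, Ifit3, Ifit1bl1, Ifit3b and Ifit1, with 1 other protein-coding gene, Ifit1bl2, in the run. Rsad2 and Cmpk2 are neighbours at chr12:26442746-26479837. Parp14, Dtx3l and Parp9 are neighbours at chr16:35832874-35972605, where Dtx3l on the minus strand overlaps the start of Parp9 on the plus strand. Zbp1, the gene that differed most in tumour cells, stands apart from all other members at chr2:173206612-173218923 on the minus strand. The longest transcripts of Ifit3 and Ifit3b were 97.8% identical over 1700 aligned bases, and those of Ifit1 and Ifit1bl1 86.0% identical over 730, so UMIs may be split unevenly within each pair and their separate values are uncertain.

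The libraries held 9423 anti-PD-1 and 8441 control barcodes with 115407230 and 113268618 UMIs, and shared 107 barcodes. A minimum of 300 genes and a maximum of 20% mitochondrial UMIs left 9422 anti-PD-1 and 8395 control cells, with median depths of 8744 and 7473 UMIs. Cells were named from marker UMIs, and 33.7% of anti-PD-1 and 44.9% of control cells stayed without a class, because they met no panel, met several, or met the LLC panel with macrophage or fibroblast markers at 1000 CPM or more. LLC-like cells numbered 4541 and 3141, macrophage-like cells 717 and 527, and monocyte-like cells 488 and 380. The other classes were neutrophil-like (118 and 149 cells), dendritic cell-like (98 and 64), T cell-like (74 and 188), NK cell-like (122 and 82), endothelial-like (26 and 56) and fibroblast-like (67 and 36). Each marker panel was highest in its own class, for example 25218 and 19770 counts per 1e+06 UMIs (CPM) of macrophage markers in macrophage-like cells, against 269 and 302 CPM in LLC-like cells. Monocyte-like cells also carried macrophage markers, at 8735 and 7526 CPM beside 3137 and 2710 CPM of monocyte markers, and no marker of the fibroblast panel was among the 10 leading genes of fibroblast-like cells. The monocyte marker Ly6c2 was not analysed here, the keratins Krt8 and Krt18 were at most 2.01 CPM in LLC-like cells, and markers of plasmacytoid dendritic cells, strong makers of interferon alpha, were at most 46.4 CPM in any class. Globin and other erythroid markers were lower in anti-PD-1 in all 9 classes, for example 53.6 CPM against 517 CPM in control LLC-like cells, and their part in the results was not tested.

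Over all cells of each library, the genes together made up 3157 CPM in anti-PD-1 and 2780 CPM in control. All 31 were measured, which here means at least 100 UMIs over both libraries together. Their median log2 ratio of anti-PD-1 over control was 0.23, while the median of the 12727 genes measured was -0.03. A gene was called higher or lower where the libraries differed by more than 1.5-fold. Ifit1bl1 was higher, at 5.73 CPM in anti-PD-1 and 3.003 CPM in control (log2 ratio 0.93, interval 0.74 to 1.12), against a background of 2.91% of all measured genes called higher. Zbp1 was lower, at 49.9 and 79.5 CPM (-0.67, -0.72 to -0.62), against a background of 10.1% called lower. The members with the most UMIs were Bst2, Oasl2, Rsad2, Isg15 and Ifi35, and Bst2 alone held 39.0% of the summed UMIs in anti-PD-1 and 36.9% in control. LLC-like cells supplied 57.0% of the genes' UMIs in anti-PD-1 and 54.7% in control, less than their 70.7% and 65.2% of all UMIs. Monocyte-like cells supplied 5.27% and 3.41% from 1.29% and 1.04% of all UMIs.

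**Figure D1:**
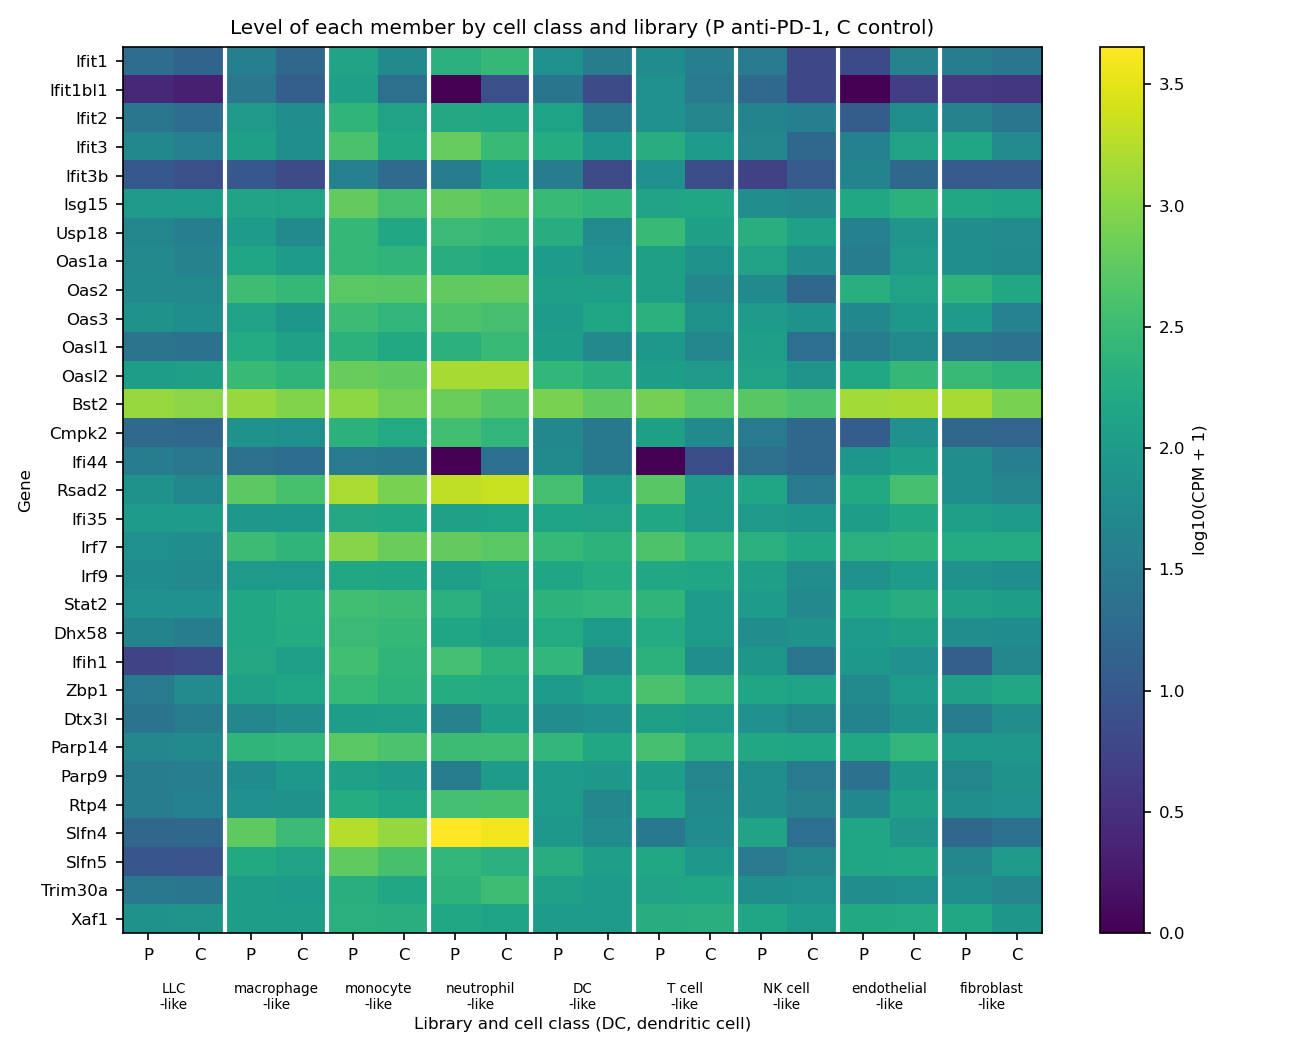
Level of each of the 31 genes (rows) in 9 cell classes, as log10(CPM + 1) of UMIs summed over the cells of a class, with the anti-PD-1 library (P) left of the control library (C) in each class. Bright tiles include Slfn4, Rsad2 and Oasl2 in neutrophil-like cells, Slfn4, Rsad2 and Irf7 in monocyte-like cells and Bst2 in nearly every class, and the LLC-like columns are dark apart from Bst2, at 1221 CPM in anti-PD-1 and 1052 CPM in control.

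Tumour cells differed little in these genes between the libraries, with 1 exception. In LLC-like cells all 31 were measured, 0 were called higher and Zbp1 alone fell, where 4.51% of the 11707 genes measured in the class were called higher and 6.88% lower. The median log2 ratio was 0.10, with 0.01 and 0.19 as the medians of the lower and upper bounds, and the median of all genes was 0.00. The counting interval lay above 0 for 16 members, below 0 for 8 and across 0 for 7, so at this depth small differences of both signs exceed the counting error. The summed level was 2544 CPM in anti-PD-1 and 2335 CPM in control, and without Bst2, which held 48.0% and 45.0% of it, 1323 and 1284 CPM.

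Zbp1, a sensor of Z-form nucleic acid that can start necroptosis, was at 30.4 CPM in anti-PD-1 LLC-like cells (2476 UMIs), against 56.6 CPM in control LLC-like cells (4175 UMIs). Its log2 ratio was -0.90 (-0.97 to -0.83), and it lay between -0.93 and -0.85 under all 10 alternative settings tried. The same gene was not called lower in macrophage-like cells (124 and 141 CPM, -0.19) or in monocyte-like cells (282 and 232 CPM, 0.28). In T cell-like cells, whose level of Zbp1 overlapped that of monocyte-like cells within counting error, it was called higher, at 401 CPM in anti-PD-1 and 257 CPM in control (0.64, 0.06 to 1.205), on 41 and 79 UMIs. Among the RNA sensors the differences in LLC-like cells were small and of either sign. Dhx58, which regulates RIG-I-like sensing, was at 43.8 and 33.9 CPM (0.37), and Ifih1, the sensor of long double-stranded RNA, at 4.52 and 5.30 CPM (-0.23). Rigi, which is not counted among the members, was at 82.0 and 69.9 CPM in LLC-like cells (0.23, 0.18 to 0.28).

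The antiviral effectors of the IFIT family, which bind foreign RNA and block its translation, stood above their control values as a group in LLC-like cells, though none passed 1.5-fold. Their 5 log2 ratios lay between 0.36 and 0.50 with a median of 0.45. Ifit3 was at 49.2 CPM in anti-PD-1 and 38.3 CPM in control (0.36, 0.29 to 0.43), and Ifit1 at 19.2 and 14.1 CPM (0.45, 0.34 to 0.56). Ifit2 was at 26.03 and 19.1 CPM (0.45), and the scarce Ifit1bl1 at 1.56 and 1.10 CPM (0.50, 0.09 to 0.92). Rsad2, or viperin, an enzyme that makes a chain-terminating nucleotide, had the highest ratio, at 73.7 and 50.4 CPM (0.55, 0.49 to 0.61), and its neighbour Cmpk2 was at 17.2 and 15.998 CPM (0.10).

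Among the other roles the values in LLC-like cells lay on both sides of 0. Isg15, the ubiquitin-like modifier, was at 91.9 CPM in anti-PD-1 and 96.7 CPM in control (-0.07), while Usp18, which removes Isg15 from proteins and damps the receptor, was at 46.7 and 37.0 CPM (0.34). The OAS family, whose products activate RNase L or resemble those that do, spanned -0.10 to 0.25, with Oasl2 at 111 and 119 CPM (-0.10) and Oas1a at 50.8 and 42.8 CPM (0.25). The parts of ISGF3 among the members were close to control, with Stat2 at 69.3 CPM in both libraries (0.00) and Irf9 at 59.2 and 54.9 CPM (0.11). Irf7, the factor that amplifies interferon production, was at 66.7 and 61.8 CPM (0.11). The ADP-ribosylation genes were all below 0, namely Dtx3l at 24.7 and 32.9 CPM (-0.41, -0.50 to -0.32), Parp14 at 48.3 and 53.1 CPM (-0.14) and Parp9 at 33.8 and 35.7 CPM (-0.08). Zbp1, Dtx3l and Ifih1 were the 3 lowest members. Bst2, or tetherin, which holds budding virus at the cell surface, was at 1221 and 1052 CPM (0.22), Ifi35 at 102 and 105 CPM (-0.04), and Xaf1, a partner of an apoptosis inhibitor, at 70.9 and 77.1 CPM (-0.12). Ifi44 was at 33.8 and 28.4 CPM (0.25), Oas3 at 73.2 and 65.2 CPM (0.17) and Rtp4 at 34.4 and 39.6 CPM (-0.20). The remaining 6, Oas2, Oasl1, Ifit3b, Trim30a, Slfn4 and Slfn5, ranged from -0.01 in Slfn4 to 0.44 in Ifit3b.

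**Figure D2:**
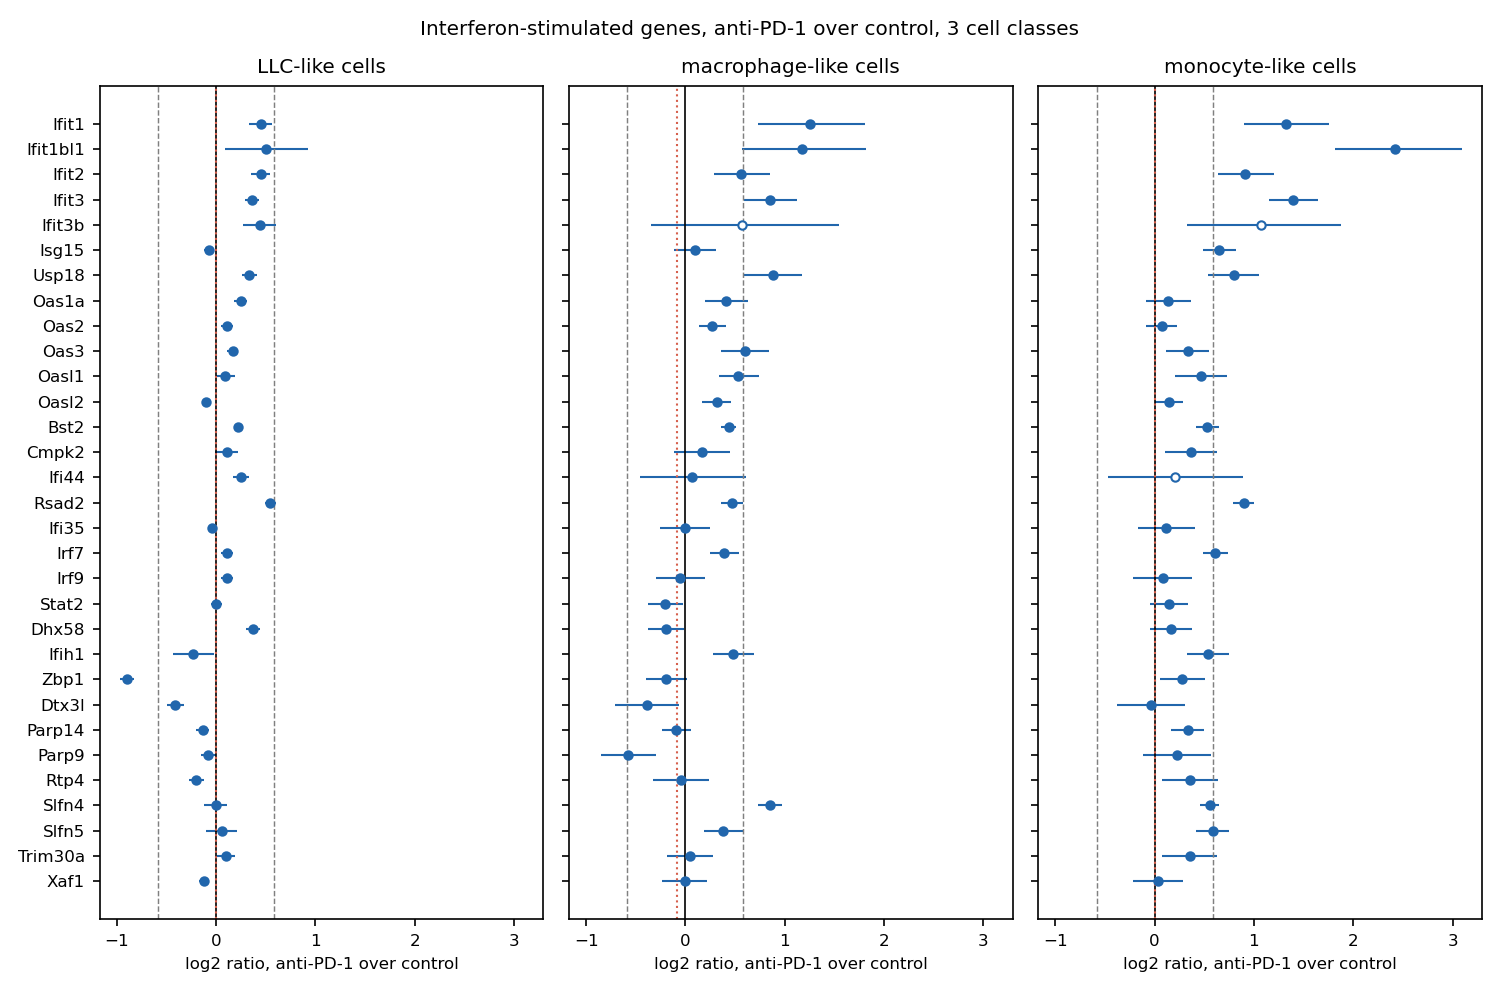
Log2 ratio of anti-PD-1 over control for each of the 31 genes in LLC-like, macrophage-like and monocyte-like cells, with exact 95% intervals that cover counting error. Open circles are genes under 100 UMIs, dashed lines mark 1.5-fold and the dotted line is the median of all genes measured in the class. Zbp1 at -0.90 is the only gene past a dashed line in LLC-like cells. The IFIT genes reach 2.43 in monocyte-like cells, in Ifit1bl1, which was measured only through the anti-PD-1 library.

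In monocyte-like cells more members were called higher than in LLC-like cells, and the IFIT genes were furthest apart. Of 29 measured members 8 were called higher and 0 lower, where 3.17% of 5522 genes were called higher and 4.27% lower. The 8 were Isg15, Ifit1, Ifit1bl1, Ifit2, Ifit3, Rsad2, Irf7 and Usp18. The median log2 ratio was 0.35 (medians of the bounds 0.12 and 0.63) against 0.01 for all genes, and 28 of the 29 were above 0. The summed level was 12920 CPM in anti-PD-1 and 9145 CPM in control (0.50, 0.46 to 0.53).

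Ifit1bl1 had the highest ratio in monocyte-like cells, at 114 CPM in anti-PD-1 (170 UMIs) and 21.3 CPM in control (25 UMIs), a log2 ratio of 2.43 (1.81 to 3.09). Ifit3 followed at 403 and 153 CPM (1.39, 1.15 to 1.64) and Ifit1 at 134 and 53.6 CPM (1.32, 0.90 to 1.75). Ifit2 was at 242 and 129 CPM (0.91), so 4 measured IFIT genes all rose, and the low Ifit3b had 56 and 21 UMIs. Rsad2 rose to 1543 CPM in anti-PD-1, against 830 CPM in control (0.90). Isg15 and Usp18 also rose, to 598 CPM against 381 CPM (0.65) and to 270 CPM against 156 CPM (0.80). Irf7 rose to 988 CPM against 648 CPM (0.61, 0.48 to 0.74).

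Other abundant members of monocyte-like cells stood just inside 1.5-fold. Slfn4, a schlafen gene of mouse myeloid cells and the member with the most UMIs there, was at 1748 CPM in anti-PD-1 and 1190 CPM in control (0.56), and Slfn5 at 579 and 386 CPM (0.58). Bst2 was at 1093 and 756 CPM (0.53) and Ifih1 at 352 and 243 CPM (0.54). The OAS genes differed less, from 0.07 in Oas2 (531 and 506 CPM) to 0.46 in Oasl1, with Oasl2 at 642 and 581 CPM (0.14). Dtx3l, at 110 and 113 CPM (-0.04), Xaf1 (0.04) and Oas2 were the 3 lowest. Rigi was at 210 and 122 CPM (0.79, 0.50 to 1.09).

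The count of members called higher in monocyte-like cells varied with the cells that entered. It was 3 or 4 genes, not 8, with stricter markers, with cells thinned to 2000 UMIs, with each cell weighted equally and without cells over 3 times the median UMI count, and 14 where classes came from clusters. The cluster then taken as monocyte-like was mixed, with 420 macrophage-like cells and 1181 cells without a class beside 787 monocyte-like cells. Ifit1 and Ifit3 were past 1.5-fold under all 10 alternatives, Ifit1bl1 under all 9 that could measure it and Rsad2 under 9 of 10. The erythroid markers in this class were at 73.3 CPM in anti-PD-1 and 1557 CPM in control and the mast cell markers at 4.03 and 239 CPM; their part in these differences was not tested.

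In macrophage-like cells IFIT genes were again among the members furthest apart, at lower levels. Of 30 measured members 6 were called higher and 0 lower, where 3.3% of 8292 genes were called higher and 6.28% lower. The median log2 ratio was 0.29 (medians of the bounds 0.15 and 0.49), while that of all genes was -0.09. Ifit1 was at 37.4 CPM in anti-PD-1 and 15.6 CPM in control (1.26, 0.73 to 1.81), Ifit1bl1 at 26.9 and 11.9 CPM (1.17, 0.57 to 1.82) and Ifit3 at 118 and 65.4 CPM (0.85, 0.59 to 1.12). These are 3 of the 4 IFIT genes measured, and Ifit2, at 91.9 and 62.1 CPM (0.56), lay just under the fold. Ifit1 (143 and 38 UMIs) and Ifit1bl1 (103 and 29 UMIs) passed the limit of 100 UMIs only through the anti-PD-1 library, so their calls are descriptions. Usp18 rose to 100.03 CPM, against 54.3 CPM in control (0.88), Slfn4 to 556 CPM against 307 CPM (0.86) and Oas3 to 128 CPM against 84.4 CPM (0.60).

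The abundant Bst2, Rsad2, Oas2 and Irf7 of macrophage-like cells stayed inside 1.5-fold. Bst2 was at 1237 CPM in anti-PD-1 and 915 CPM in control (0.44), Rsad2 at 535 and 387 CPM (0.47), Oas2 at 329 and 273 CPM (0.27) and Irf7 at 322 and 245 CPM (0.39). Isg15 was at 136 and 127 CPM (0.10), so the modifier itself differed less than Usp18, which removes it. The ADP-ribosylation genes were again below 0, with Parp9 the lowest member at 58.8 and 87.7 CPM (-0.58, -0.85 to -0.30) and Dtx3l at 46.5 and 60.9 CPM (-0.39). Stat2 was at 156 and 179 CPM (-0.20), Dhx58 at 154 and 177 CPM (-0.20) and Rigi at 89.8 and 58.4 CPM (0.62, 0.33 to 0.91). A single control macrophage-like cell held 859 of the genes' UMIs, 7.49% of the control sum. Without it and the top anti-PD-1 cell, 10 members were called higher, adding Ifit2 (0.79), Oasl1 (0.69), Rsad2 (0.92) and Cmpk2 (0.65), and Ifit1bl1 moved to 2.54. Among monocyte markers in macrophage-like cells, F13a1 was at 758 CPM in anti-PD-1 and 323 CPM in control, and Plac8 went the other way, at 42.3 and 75.3 CPM. Ccr2 was at 157 and 161 CPM and Chil3 at 10.2 and 6.59 CPM. The part of these markers in the differences between the libraries was not tested.

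The remaining immune classes had few cells, and few members reached 100 UMIs. In neutrophil-like cells 10 members were measured, with a median of 0.17 against -0.01 for all genes. Ifit3 alone was called higher, at 613 CPM in anti-PD-1 and 299 CPM in control (1.04, 0.48 to 1.61), and 0 were lower, where 3.22% of genes were called higher and 8.42% lower. Ifit3 had 74 and 44 UMIs and passed the limit of 100 UMIs only through the anti-PD-1 library, so this call is a description. The 5 members with the most UMIs there stood on both sides of control, namely Slfn4 at 4508 and 3747 CPM (0.27), Rsad2 at 1989 and 2206 CPM (-0.15), Oasl2 at 1492 and 1500.3 CPM (-0.01), Oas2 at 580.1 and 597 CPM (-0.04) and Bst2 at 671 and 489 CPM (0.46). Isg15 was at 605 and 489 CPM (0.31) and Rtp4 at 365 and 387 CPM (-0.09).

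In dendritic cell-like cells 5 members were measured, with a median of 0.30 against 0.06 for all genes. Rsad2 was called higher, at 371 CPM in anti-PD-1 (88 UMIs) and 98.2 CPM in control (17 UMIs), a log2 ratio of 1.92 (1.16 to 2.76), where 10.1% of genes were called higher and 6.41% lower. It passed the limit of 100 UMIs only through the anti-PD-1 library, so this call is a description. Bst2 was at 822 and 583 CPM (0.49), Isg15 at 299 and 243 CPM (0.30), Irf7 at 282 and 231 CPM (0.29) and Stat2 at 232 and 266 CPM (-0.20). The top 5 of the 98 anti-PD-1 cells held 46.2% of the genes' UMIs in that library, and the top 5 of the 64 control cells 34.6%. Other markers differed too, with macrophage markers at 1660 CPM in anti-PD-1 and 982 CPM in control, Cd209a at 1053 and 462 CPM, Clec9a at 190 and 485 CPM and Xcr1 at 37.9 and 121 CPM. Their part in these values was not tested.

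T cell-like and NK cell-like cells had 3 and 1 measured members, so their summed UMIs were compared. The sum was 5991 CPM in anti-PD-1 and 3388 CPM in control for T cell-like cells (0.82, 0.68 to 0.97), and 3150 and 2039 CPM for NK cell-like cells (0.63, 0.45 to 0.81). The median log2 ratio of all genes measured was -0.01 in T cell-like and 0.16 in NK cell-like cells. In T cell-like cells Irf7 was called higher, at 430.02 and 250.1 CPM (0.78, 0.21 to 1.33), together with Zbp1, where 11.6% of genes were called higher and 15.9% lower, and Bst2 was at 782 and 523 CPM (0.58). Rsad2 had 51 UMIs in anti-PD-1 T cell-like cells (498 CPM) and 31 in control ones (101 CPM), and Parp14 had 39 and 60 UMIs (381 and 195 CPM), both under the limit for a call. Monocyte markers in T cell-like cells were at 753 and 523 CPM and NK cell markers at 410 and 1449 CPM. Of the monocyte markers, Ccr2 alone was higher in anti-PD-1, at 518 CPM against 90.9 CPM in control. Plac8 (215 and 383 CPM), F13a1 (19.5 and 35.7 CPM) and Chil3 were lower, as were the macrophage markers (557 and 793 CPM). Cd8a was at 498 CPM in anti-PD-1 and 1445 CPM in control and Cd4 at 440 and 107 CPM, and the part of these markers was not tested. In NK cell-like cells Bst2 was at 512 and 404 CPM (0.34), with 10.6% of genes called higher and 4.96% lower, and the sum's log2 ratio was 0.32 once cells were thinned to 2000 UMIs.

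In endothelial-like cells more members were called lower than higher. Of 15 measured members 5 were called lower (Ifit3, Oasl2, Rsad2, Rtp4 and Parp14) and Oas2 was called higher, where 19.1% of genes were called lower and 9.5% higher. The median was -0.42, with -1.15 and 0.27 as the medians of the bounds, against -0.08 for all genes. Ifit3 was at 38.7 CPM in anti-PD-1 (7 UMIs) and 128 CPM in control (102 UMIs), a log2 ratio of -1.73 (-3.08 to -0.63). Rsad2 was at 166 and 382 CPM (-1.203, -1.80 to -0.66), Rtp4 at 49.8 and 119 CPM (-1.26), and Oas2 at 193 and 126 CPM (0.62, 0.02 to 1.19). Bst2 was at 1410 and 1500.2 CPM (-0.09). The control class held 56 cells, of which 1 had 1558 of the 4141 member UMIs, or 37.6%. Without that cell and the top anti-PD-1 cell, Rsad2 was at 159 and 242 CPM (-0.60, -1.25 to -0.01) and Ifit3 had 7 and 38 UMIs, and both values moved by more than 1.5 times. Oasl2 then lost its call (-0.36), and Ifit3, Rtp4 (8 and 52 UMIs) and Oas2 (26 and 49 UMIs) fell under the limit for a call. Irf7 (-0.82, 20 and 126 UMIs) and Isg15 (-0.73, 18 and 107 UMIs) were then called lower, each measured only through the control library. The median was -0.36 without the top cell of each library, -0.01 with each cell weighted equally and 0.09 with classes from clusters.

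Fibroblast-like cells had 11 measured members, 4 called higher and 0 lower, where 12% of genes were called higher and 9.74% lower. Ifit3 was at 142 CPM in anti-PD-1 and 57.1 CPM in control (1.31, 0.76 to 1.89), Bst2 at 1481 and 821 CPM (0.85), Xaf1 at 149 and 84.9 CPM (0.82) and Oas2 at 241 and 152 CPM (0.66). Ifit3 was measured only through the anti-PD-1 library, so its call is a description. The lowest were Zbp1 at 121 and 148 CPM (-0.29), Irf7 at 169 and 177 CPM (-0.07) and Parp14 at 88.2 and 87.9 CPM (0.01). The median was 0.21 against 0.11 for all genes, and -0.79 where the class came from clusters. The top cell of the 67 in anti-PD-1 held 18.8% of the genes' UMIs in that class and library, and the top cell of the 36 in control 14.1%.

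The order of the cell classes was similar in the libraries at its top and differed below it. The summed level in anti-PD-1 was highest in neutrophil-like cells (15498 CPM), followed by monocyte-like (12920), T cell-like (5991), macrophage-like (5905), dendritic cell-like (5267), endothelial-like (3992), fibroblast-like (3985), NK cell-like (3150) and LLC-like cells (2544 CPM). Counting intervals overlapped between T cell-like and macrophage-like and between endothelial-like and fibroblast-like cells. Slfn4 alone was at 4508 CPM in neutrophil-like and 1748 CPM in monocyte-like cells of anti-PD-1. This gap exceeds that between the summed levels of these classes, so their order there rests on Slfn4. In control Slfn4 was at 3747 and 1190 CPM, a gap smaller than that between the sums. In control the order was neutrophil-like (14311 CPM), monocyte-like (9145), endothelial-like (5203), macrophage-like (4719), dendritic cell-like (3603), T cell-like (3388), fibroblast-like (2978), LLC-like (2335) and NK cell-like cells (2039), with overlap between dendritic cell-like and T cell-like cells. In control, 1 cell held 37.6% of the endothelial-like UMIs, and without Bst2 macrophage-like cells stood above endothelial-like cells, with overlapping intervals, and LLC-like cells came last. Gene by gene, neutrophil-like or monocyte-like cells had the highest level of 25 members in each library, and 22 of the 31 had the same highest class in both. Levels are CPM within a class and are compared for the same gene between classes, since each gene is read through its own probes.

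A few genes set the tumour cells apart from the myeloid classes. Slfn4 was at 15.3 CPM in anti-PD-1 and 15.4 CPM in control LLC-like cells, 0.34% and 0.41% of its neutrophil-like level, while neutrophil markers in LLC-like cells were at 0.19% and 0.35% of theirs. Ifih1 was at 2.86% and 4.68% of its macrophage-like level, and macrophage markers at 1.07% and 1.53%. The part of other cells' RNA in these low levels was not tested. Bst2 in LLC-like cells was at 98.7% and 115% of its macrophage-like level, Ifi35 at 115% and 118%, and Ifi44 at 160% and 141%. Ifi44 was highest in endothelial-like cells, at 82.9 and 113 CPM.

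Within the tumour class a small share of cells carried much of the signal, and the split by cluster gave different signs. Each LLC-like cell was thinned to 5000 UMIs, which left out 177 anti-PD-1 and 48 control cells, and Bst2, which was spread more evenly over cells, was set aside. The remaining 30 members averaged 6.61 UMIs per cell in anti-PD-1 and 6.59 in control, with medians of 3 and 4 UMIs. Cells with at least 20 such UMIs were 293 of 4364 in anti-PD-1 (6.71%, exact interval 5.99 to 7.497) and 183 of 3093 in control (5.92%, 5.11 to 6.81). The 10% of cells with the most such UMIs held 48.2% of the UMIs in anti-PD-1 and 42.0% in control, and the variance was 18.2 and 13.6 times the mean, while for Bst2 it was 3.597 and 2.76 times. The members were found together in the same cells. In the 295 anti-PD-1 and 174 control cells with at least 2 IFIT UMIs, Rsad2 was 30.5 and 27.7 times its mean in cells with none, Usp18 17.1 and 12.6 times and Isg15 7.54 and 7.45 times, while the tumour marker Hmga2 was 0.94 and 0.88 times. This was not particular to the members, since the interferon gamma response genes Iigp1 (15.1 and 3.88 times) and Irf1 (2.16 and 2.08 times) were higher there too. Macrophage markers in those cells averaged 1.42 UMIs in anti-PD-1 and 1.71 in control, against 1.34 and 1.43 in cells with none. Monocyte markers averaged 0.634 and 0.793 UMIs, against 0.401 and 0.497, and neutrophil markers 0.115 and 0.471 UMIs, against 0.144 and 0.251. Their part in these values was not tested.

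**Figure D3:**
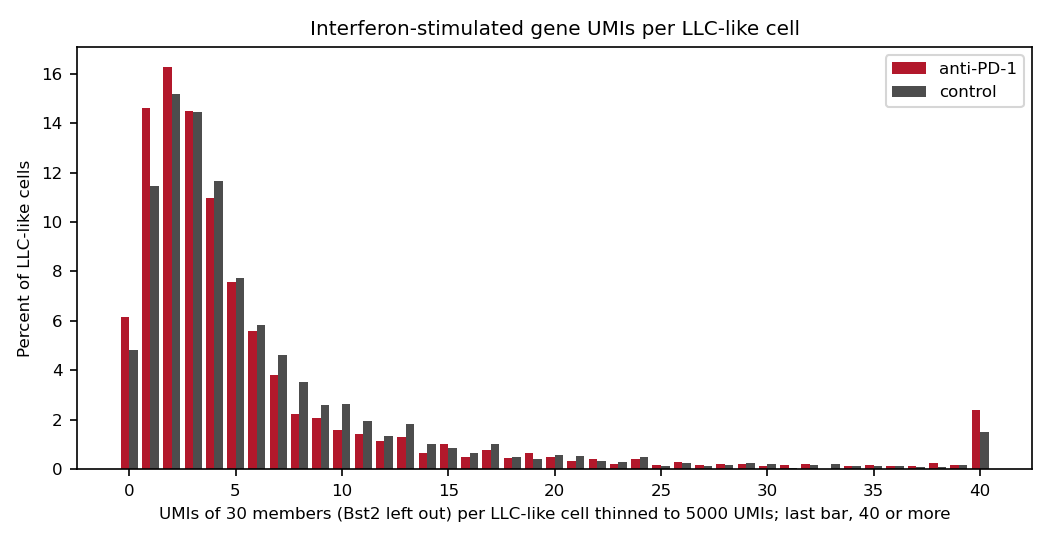
Percent of LLC-like cells (vertical axis) by the number of UMIs of 30 members without Bst2 (horizontal axis) after thinning each cell to 5000 UMIs, with anti-PD-1 in red and control in grey and the last bar holding 40 or more. The medians are 3 and 4 UMIs, and 6.71% of anti-PD-1 and 5.92% of control cells reach 20.

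The LLC-like class was made of different clusters in the libraries, which limits the tumour comparison. Cluster 1 held 40.3% of anti-PD-1 and 3.88% of control LLC-like cells and cluster 4 28.1% and 6.24%, while cluster 2 held 13.7% and 45.5%. Within the 7 clusters of enough cells the median log2 ratio of the members ranged from -0.31 in cluster 9 to 0.63 in cluster 5, where 28 of 30 were above 0. Clusters 3 and 5 were mostly cells without a class, and cluster 5 held 93 macrophage-like cells beside its 322 LLC-like cells, with no doublet caller run. In the other 5 clusters the median ranged from -0.31 to 0.19. Zbp1 was below 0 in all 7, from -1.12 to -0.14, and past 1.5-fold in 6 of them. The other 30 members each had values on both sides of 0 among the clusters, low counts included, with Ifit3 ranging from -0.75 in cluster 9 to 0.84 in cluster 5. Rsad2 ranged from -0.96 in cluster 1 to 1.24 in cluster 9.

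**Figure D4:**
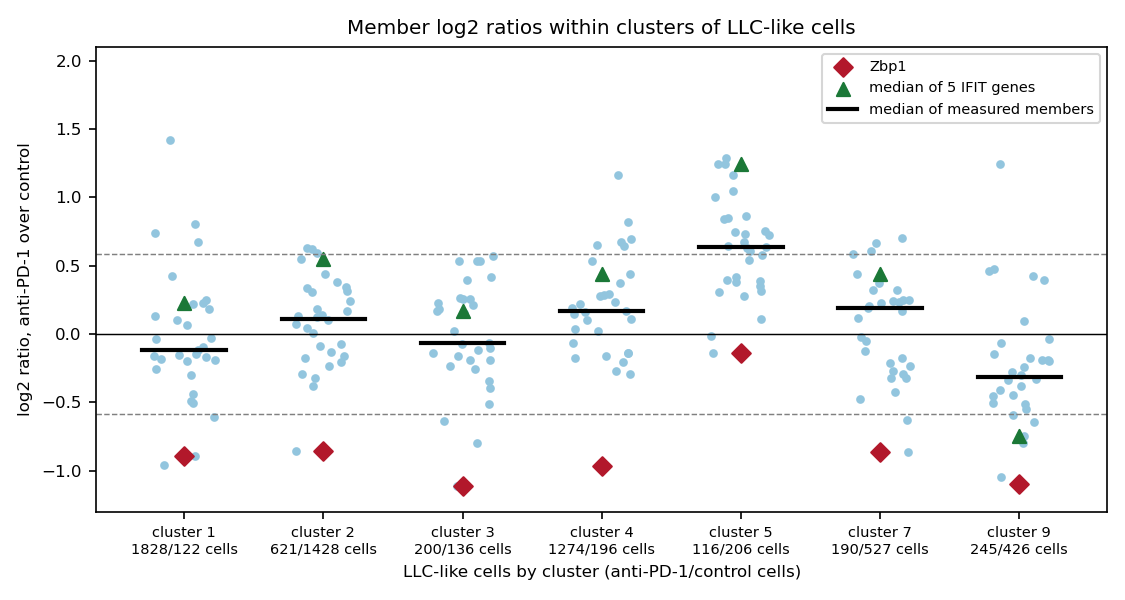
Log2 ratio of anti-PD-1 over control of each of the 31 members (blue points), those under 100 UMIs included, within 7 clusters of LLC-like cells. The number of anti-PD-1 and control cells stands under each cluster. Black bars are medians of the measured members, from -0.31 in cluster 9 to 0.63 in cluster 5. Green triangles are the median of the 5 IFIT genes, whatever their counts, and red diamonds Zbp1, which is below 0 in every cluster.

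Other genes of the pathway were set beside the members, from lists chosen with earlier results of these data known. Of 71 other interferon-stimulated genes measured in LLC-like cells, 0 were called higher and 4 lower, with a median of 0.07, and in monocyte-like cells 5 of 65 were higher and 1 lower, with a median of 0.22. In macrophage-like cells 3 of 67 were higher and 3 lower (0.06). Of all genes measured, 4.51% were called higher and 6.88% lower in LLC-like cells. The shares were 3.17% and 4.27% in monocyte-like cells and 3.3% and 6.28% in macrophage-like cells. Trim30c was the highest of them in macrophage-like cells, at 35.3 CPM in anti-PD-1 and 17.7 CPM in control (0.99), and in monocyte-like cells, at 64.6 and 34.9 CPM (0.89). Ifitm1, which blocks virus entry, was the lowest in LLC-like cells, at 2.13 and 6.36 CPM (-1.58), and in monocyte-like cells, at 28.2 and 97.9 CPM (-1.79). In monocyte-like cells Trim30c was measured only through the anti-PD-1 library and Ifitm1 only through the control library, so both values there are descriptions. Genes of the interferon gamma response were called lower more often than higher in the same cells, with 32 of 35 lower in LLC-like cells (median -1.37), 26 of 33 in macrophage-like cells (-1.39) and 13 of 30 in monocyte-like cells (-0.44), and 0 called higher in each. Tap1 and Psmb8 stood in this list and in that of the other interferon-stimulated genes.

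The receptor chains Ifnar1 and Ifnar2 were at 52.9 CPM in anti-PD-1 and 49.5 CPM in control (0.10) and at 59.8 and 55.9 CPM (0.10) in LLC-like cells, and Irf3, which starts interferon production, at 101 and 89.5 CPM (0.18). Socs1, which ends signalling, was at 118 and 300.4 CPM in monocyte-like cells (-1.35) and at 42.6 and 134 CPM in macrophage-like cells (-1.66).

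Few UMIs came from the ligand genes. The 11 genes of interferon alpha and beta in the files summed to 166 UMIs in anti-PD-1 and 369 in control over whole libraries, or 1.44 and 3.26 CPM, of which 85 and 269 were in cells of no class. Ifnb1 had 10 and 25 UMIs. Ifne, an interferon of epithelia that uses the same receptor, was the type I ligand gene with the most UMIs in LLC-like cells, 175 and 72 UMIs (1.14, 0.73 to 1.55). Ifng, the ligand of the other pathway, had 125 and 239 UMIs in the whole libraries (-0.96, -1.29 to -0.64).

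**Figure D5:**
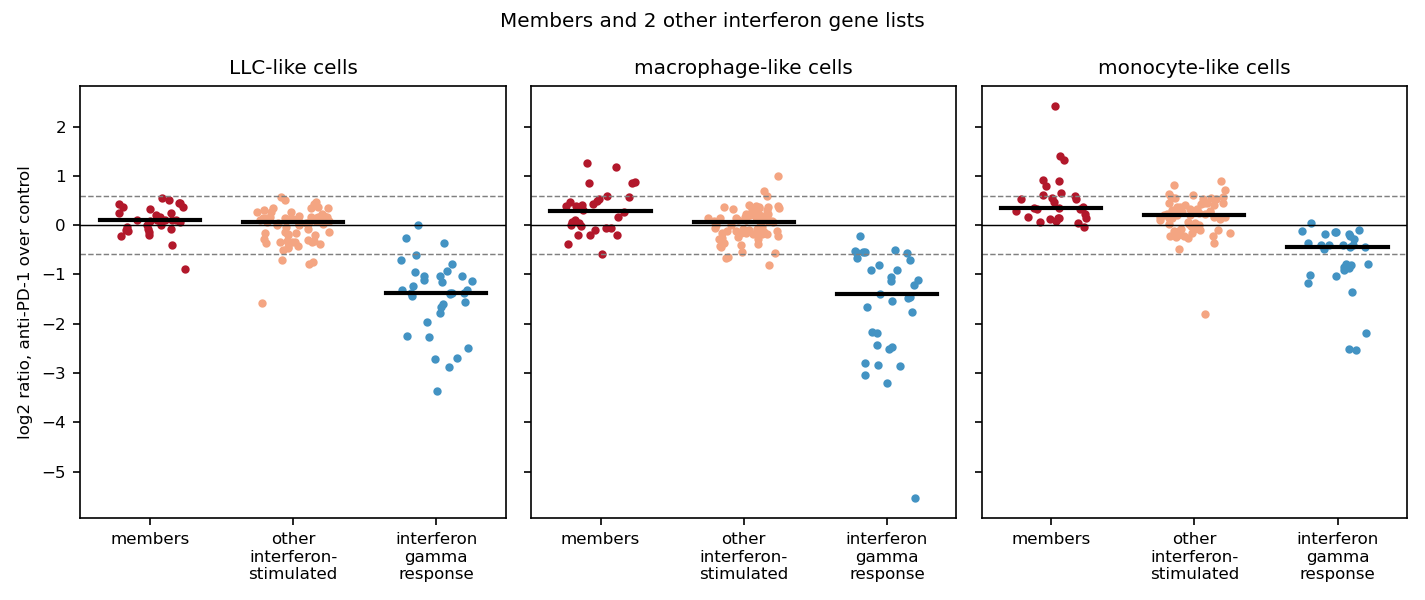
Log2 ratio of anti-PD-1 over control for the measured members (red), other interferon-stimulated genes (orange) and interferon gamma response genes (blue) in 3 cell classes, with black bars at the medians and dashed lines at 1.5-fold. In LLC-like cells the medians are 0.10, 0.07 and -1.37, and in monocyte-like cells 0.35, 0.22 and -0.44.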

How the data were processed

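Single-cell libraries of dissociated LLC tumours were made with a probe-based 10x kit, per the labels; the labels also name a 3' protocol. The authors deposited unnormalised UMI counts per gene and barcode, written by Cell Ranger 9.0.1 per the file headers, while the submitters' processing notes name version 7.0.1 and mm10. Probe counts cannot be compared as levels between genes.

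Cells had at least 300 genes and no more than 20% mitochondrial UMIs, and no doublet caller was run. A cell was classed where 1 marker panel alone passed its thresholds on marker CPM, UMIs and distinct markers, 500 CPM and 5 UMIs for LLC-like cells. LLC-like cells also needed 2000 UMIs in all and under 1000 CPM of macrophage and of fibroblast markers. Monocyte-like cells also needed 1500 CPM and 3 distinct macrophage markers and a ratio of macrophage to monocyte markers under 10, and macrophage-like cells a ratio of 10 or more. All thresholds were set after seeing the data. The members, markers and gene lists were chosen with earlier results of these data known. For each class, UMIs of all its cells were added up, scaled to CPM and compared as log2 of anti-PD-1 over control, with exact Poisson intervals for CPM and exact conditional binomial (Clopper-Pearson) intervals for ratios, both at 95% and for counting error only. A gene with 0 UMIs was set to 3. A gene was measured with at least 100 UMIs over both libraries, and a list got a median from 5 measured members on; the summed UMIs served otherwise.

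Clusters were made with scanpy 1.11.5 at resolution 1, from 2000 variable genes and 40 components, without interferon genes. In each class the 5 members with the most UMIs and the 3 highest and 3 lowest by ratio were named, and in the large classes further members; of other genes, ligands, receptors, Irf3 and the extremes of some lists; a gene the rule names is not reported here. Python 3.11.15, scipy 1.17.1 and numpy 2.4.6 were used, and the calculations were tested on simulated data. Alternatives were a filter of 1000 genes, equal weight for each cell, thinning to 2000 UMIs, removal of cells over 3 times the median UMI count, classes from clusters, stricter marker thresholds, and removal of the top cell.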

Additional observations from a re-analysis of the deposited data

Results flagged for a closer look

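For 3 values the direction in 1 cell class was opposite to that in others, past 1.5-fold on both sides. None of these differences between classes was itself tested, and there is 1 library per group. Ifit3 had a log2 ratio of -1.73 in endothelial-like cells, where it was 0.85 in macrophage-like, 1.39 in monocyte-like, 1.04 in neutrophil-like and 1.31 in fibroblast-like cells. It was measured only through the control library in endothelial-like cells, and only through the anti-PD-1 library in neutrophil-like and fibroblast-like cells. Rsad2 had -1.203 in endothelial-like cells, where it was 0.90 in monocyte-like and 1.92 in dendritic cell-like cells, the last on 88 anti-PD-1 and 17 control UMIs, so that it was measured only through the anti-PD-1 library. Both endothelial-like values were -0.60 once the cell with the most member UMIs was left out of each library, with Ifit3 then on 7 anti-PD-1 and 38 control UMIs. Zbp1 had -0.90 in LLC-like cells and 0.64 in T cell-like cells, the second on 41 anti-PD-1 and 79 control UMIs with an interval of 0.06 to 1.205.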

How the results depend on the processing

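No paired analysis was possible because each group has 1 library. The counts of calls depended on which cells entered a class, and the medians of endothelial-like and fibroblast-like cells changed sign under some settings. The median over whole libraries was 0.23 as reported, 0.14 with each cell weighted equally and 0.12 with cells thinned to 2000 UMIs. In LLC-like cells the members called higher were 0 as reported, 1 with equal weights (Ifit1bl1), 2 with classes from clusters (Ifit1bl1 and Rsad2) and 1 with stricter markers (Ifit2), and Zbp1 was the 1 lower member under all 10 alternatives. In macrophage-like cells 10 members in place of 6 were higher after thinning and 10 without the top cell of each library, and 1 in place of 0, Parp9, was lower with at least 1000 genes per cell, with classes from clusters and with stricter markers. In monocyte-like cells 8 became 4 with equal weights, 3 after thinning, 4 without cells over 3 times the median UMI count, 14 with classes from clusters and 3 with stricter markers. The summed ratio of T cell-like cells was 0.82, and 0.66 with clusters and 0.97 with stricter markers. That of NK cell-like cells was 0.63, and 0.32 after thinning, 0.38 without cells of many UMIs and 0.36 with stricter markers. The fibroblast-like median was 0.21, and -0.79 with classes from clusters, and the endothelial-like median was -0.42, -0.61 with no filter on low genes, -0.01 with equal weights and 0.09 with classes from clusters. The cause of these shifts was not tested.

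The LLC-like median stayed between 0.05 and 0.11, the macrophage-like between 0.29 and 0.46 and the monocyte-like between 0.19 and 0.48. Leaving out the top cell, and averaging the LLC-like medians over clusters, were chosen after seeing the data. Too few cells or members were left for thinning in neutrophil-like, dendritic cell-like, T cell-like, endothelial-like and fibroblast-like cells, for at least 1000 genes in neutrophil-like and dendritic cell-like cells, for removal of cells of many UMIs in dendritic cell-like and endothelial-like cells, and for stricter markers and removal of the top cell in dendritic cell-like cells. Depth limits these small classes most, since only genes with 100 UMIs were called.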
